A study of Homo sapiens with 8 samples.

Results

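The genes FOS, FOSB, FOSL1 and FOSL2 and the genes JUN, JUNB and JUND encode the FOS and JUN subunits of the transcription factor AP-1, and their mRNA levels are described here in 293T cells exposed to EerI, CBU-028 or 5-NA. A probe set, which is a group of short probes read together as 1 value, was taken as a member where the platform annotation gave it the symbol of 1 of these 7 genes and no other. This gave 17 of the 54675 probe sets on the array, and 7 of the 19775 genes with a probe set of their own. FOS, FOSB, FOSL1 and JUNB had 1 probe set each, JUN and JUND had 4 each, and FOSL2 had 5. In RefSeq on GRCh38.p14, FOS lies at chr14:75278828-75282230, FOSB at chr19:45467996-45475179, FOSL1 at chr11:65892049-65900545, FOSL2 at chr2:28392858-28417317, JUN at chr1:58780791-58784047, JUNB at chr19:12791486-12793315 and JUND at chr19:18279694-18281622.

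AP-1 is a dimer held together by leucine zippers. JUN subunits can pair with each other or with a FOS subunit, whereas FOS subunits need a partner of the JUN family to bind DNA, and the dimers recognise the TPA response element and related cyclic AMP response elements. FOS, FOSB, JUN and JUNB are classical immediate early genes, transcribed within minutes of a growth factor or stress signal, and FOSL1 and FOSL2 usually follow later.

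The study asked how EerI, an inhibitor of the degradation of proteins from the endoplasmic reticulum, and related compounds act on cells. Total RNA of 293T, a line of human embryonic kidney origin with the SV40 large T antigen, was measured on 8 Affymetrix arrays. The 4 groups, with 2 arrays each, were control cells and cells exposed for 10 h to EerI, to CBU-028 or to 5-NA, each at 10 µM. EerI holds a nitrofuran-containing domain and an aromatic domain, and 5-NA, 5-nitrofuryl-acrolein, corresponds to the nitrofuran-containing part alone. All groups were of this 1 line, without a genetic change between them, and whether control cells were given solvent is not stated in the sources used here. The 5-NA samples have in their titles an experiment number that belongs to CBU-029 in the study's list of compounds, but every other label of theirs names 5-NA. The methods describe the treatments as duplicates and a legend speaks of a biological replicate, without saying how the cultures were set up. The p-values set each difference against how far such duplicates differed.

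Values are log2 expression values as deposited, normalized to a common distribution, so that a difference of 1 is a doubling. They are compared between arrays for 1 probe set at a time, since probe sets differ in how strongly they bind. The median of the arrays was 6.89 to 6.93. Of 6 markers of the 293T line, NEFL, NEFM, INA, VIM and LIN28B were above this median, from 8.75 for INA to 13.8 for VIM, and PAX2 was near it, at 6.58 to 6.95. Of 3 markers of lymphoma cells, MS4A1 and PTPRC were below it, at 4.40 to 5.71, and CD79A was above it, at 7.43 to 7.87. Of 4 fibroblast markers, COL1A1 was above it, at 8.75 to 9.36, and COL1A2, COL3A1 and PDGFRB were at 6.05 to 6.96. The 28S ribosomal RNA probe set was at 11.33 on both control arrays, 11.47 and 11.57 with EerI, 11.57 and 11.81 with CBU-028, and 12.42 and 12.67 with 5-NA. That for 18S was at 10.59 to 10.79 on the control and EerI arrays, at 11.45 and 11.31 with CBU-028 and at 11.19 and 11.64 with 5-NA. In limma, 28S rose against control with 5-NA (1.22, adjusted p = 0.000354) and was not called with CBU-028 (0.36, adjusted p = 0.0788) or EerI (0.19, adjusted p = 0.679), whereas 18S rose with CBU-028 (0.66, adjusted p = 0.0214) and 5-NA (0.69, adjusted p = 0.0118) and was at -0.03 with EerI (adjusted p = 0.982). The difference between the 3' and 5' probe sets of ACTB, a gauge of RNA integrity, was 0.0743 to 0.363, highest on 5-NA replicate 2. The part of these values in the differences of FOS and JUN genes described here was not tested. Fewer cells that express a gene and less of its RNA per cell cannot be told apart in RNA of whole cultures.

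The promoters of FOS and JUN are shown because the mRNAs of these genes differed in opposite directions between 5-NA and EerI. Both are the 250 bases before the gene's start in RefSeq on GRCh38.p14, written 5' to 3' on the strand of the gene, and capitals mark TGACGTTT in FOS and TGACATCA and TATTTTTA in JUN. The FOS stretch is chr14:75278578-75278827 on the plus strand, and the JUN stretch is chr1:58784048-58784297 on the minus strand.
FOS: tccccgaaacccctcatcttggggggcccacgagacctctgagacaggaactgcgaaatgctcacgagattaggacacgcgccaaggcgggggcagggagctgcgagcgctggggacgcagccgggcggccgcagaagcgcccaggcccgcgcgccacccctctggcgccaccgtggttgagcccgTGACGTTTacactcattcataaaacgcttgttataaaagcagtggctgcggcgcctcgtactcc
JUN: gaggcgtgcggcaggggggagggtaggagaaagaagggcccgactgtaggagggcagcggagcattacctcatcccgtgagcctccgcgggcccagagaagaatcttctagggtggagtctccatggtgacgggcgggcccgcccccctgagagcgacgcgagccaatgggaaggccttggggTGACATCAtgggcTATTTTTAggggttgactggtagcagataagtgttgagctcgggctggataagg
The capitals in FOS and JUN were chosen after the sequences were seen, and each is near the start, where -1 is the last base before it. TGACGTTT begins at position -64 of FOS, and TGACATCA and TATTTTTA at positions -67 and -54 of JUN. Searched on both strands in 35116 promoters of 300 bases, which reach from 250 bases before to 50 after the start, TGACGTTT was found in 0.487%, TGACATCA in 2.61% and TATTTTTA in 2.28%. The core TGACG, which TGACGTTT contains, was also chosen after the sequences were seen. It was found in 24.6% of these promoters and in that of all 6 members with an entry in the promoter table, which are FOS, FOSB, FOSL2, JUN, JUNB and JUND. Since it was picked from these sequences, its presence in the members is no test against that share. The full AP-1 sequence TGACTCA was found in 4.95% of promoters and in FOSL2 alone of these 6, and the full cyclic AMP response element TGACGTCA, which also contains TGACG, was found in 1.85% and in JUND alone. The CArG box, which is CC, then 6 bases of A or T, then GG, was found in 1.29% of promoters and not in these 6. Unlike the capitals, the CArG box, TGACTCA and TGACGTCA were set before the sequences were seen. A match describes letters only, and binding was not measured.

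All 4 FOS genes rose with 5-NA in at least 1 probe set, and FOS, FOSL1 and FOSL2 did with CBU-028, while JUN rose with EerI and CBU-028 and was lower with 5-NA than with either of them in 3 of its 4 probe sets. A call is an adjusted p under 0.05 in limma, adjusted after Benjamini and Hochberg over the 54675 probe sets of each comparison, and every adjusted p given is of this kind. With EerI, 2 member probe sets of 17 were called higher and 0 lower, where 0.357% of all probe sets were called higher and 0.170% lower. With CBU-028, 6 were called higher and 1 lower, where 4.40% of all were called higher and 5.27% lower. With 5-NA, 7 were called higher and 1 lower, where 7.32% of all were called higher and 7.90% lower. The median log2 fold change over the 7 genes, each by its probe set of highest mean over all 8 arrays, was 0.09 with EerI, 0.33 with CBU-028 and 0.71 with 5-NA, against -0.00, -0.01 and -0.03 over all genes. Over all 17 member probe sets the median was 0.09, 0.28 and 0.15 in the same order, against 0.01, 0.00 and -0.01 over all probe sets. By this second measure CBU-028 stood above 5-NA. The 3 comparisons share the control arrays. For the fits below with 1 array left out, the share of all probe sets called is not given. Such a fit leaves 1 array in a group and has less power, so a call lost there does not show that the array carried the difference. Without either of the EerI arrays or control replicate 1, the EerI count was 0, and without control replicate 2 it was 1. The CBU-028 count was as low as 2, without either control array, and the 5-NA count as low as 3, without control replicate 2.

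**Figure D1:**
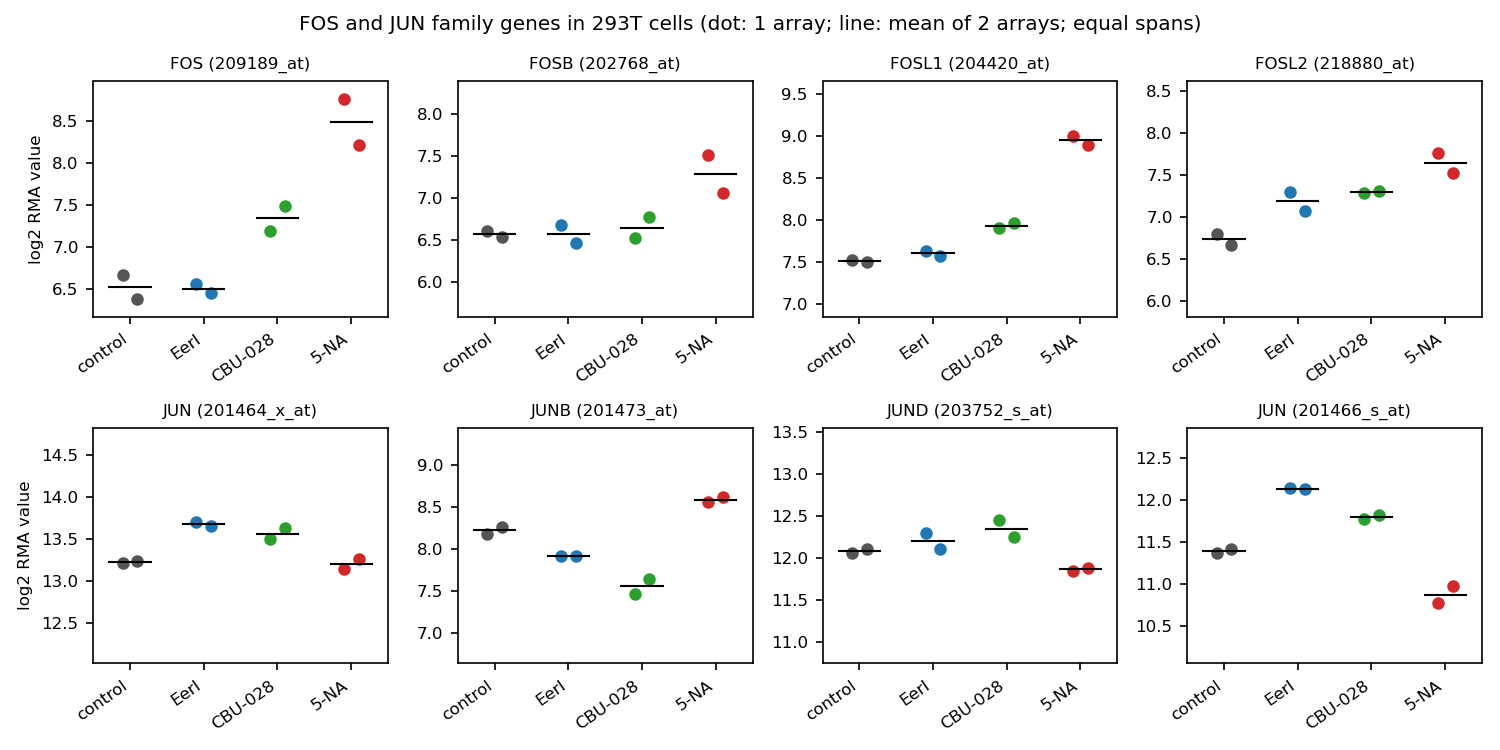
Log2 expression value on each of the 8 arrays, by group, of each FOS and JUN family gene by its probe set of highest mean, and of JUN also by 201466_s_at, its probe set with the lowest value of 5-NA minus EerI, with 1 point per array, a line at the mean of the 2 arrays and axes of equal span. FOS is at 8.76 and 8.22 with 5-NA and at 6.66 or lower on the control and EerI arrays, while JUN 201466_s_at is at 12.14 and 12.13 with EerI and at 10.78 and 10.98 with 5-NA.

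FOS, the founding member of the family, was at 6.66 and 6.38 in control, 6.56 and 6.45 with EerI, 7.19 and 7.49 with CBU-028, and 8.76 and 8.22 with 5-NA. The EerI arrays lay within the span of the control arrays, both CBU-028 arrays lay above those 4, and both 5-NA arrays lay above all others. The log2 fold change against control was 1.97 with 5-NA (SE 0.178, 95% interval 1.56 to 2.37, adjusted p = 0.000346), a 3.91-fold rise, and this was the 19th largest increase among all probe sets. With CBU-028 it was 0.82 (SE 0.178, adjusted p = 0.0215), a 1.77-fold rise, and this call was lost without control replicate 1 (adjusted p = 0.0601), control replicate 2 (adjusted p = 0.153) or CBU-028 replicate 2 (adjusted p = 0.0627). With EerI the value was -0.02, with a 95% interval of -0.42 to 0.38 that holds changes of either sign. With 1 array left out, the log2 fold change of FOS with 5-NA was between 1.69 and 2.24, and it stayed called each time.

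FOSB encodes a further FOS subunit and is itself an immediate early gene. Its values were 6.61 and 6.54 in control, 6.69 and 6.47 with EerI, 6.52 and 6.78 with CBU-028, and 7.51 and 7.06 with 5-NA. Only the 5-NA arrays stood above the rest, and the other 6 arrays overlapped. FOSB rose with 5-NA by 0.71 (SE 0.152, adjusted p = 0.0134), or 1.64-fold. The call for FOSB was lost without control replicate 1 (adjusted p = 0.067), control replicate 2 (adjusted p = 0.0899) or 5-NA replicate 1 (adjusted p = 0.0809). With EerI and CBU-028 the differences of FOSB were 0.01 (95% interval -0.34 to 0.35) and 0.08 (95% interval -0.27 to 0.42).

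FOSL1, also known as FRA1, lacks the transactivation domain of FOS and is often high in transformed cells. It was at 7.52 and 7.50 in control, 7.63 and 7.57 with EerI, 7.90 and 7.96 with CBU-028, and 9.00 and 8.89 with 5-NA. The 4 groups did not overlap, and the order of their levels was control, EerI, CBU-028 and 5-NA, in which the neighbours control and EerI did not differ by the test (0.09, 95% interval -0.09 to 0.28, adjusted p = 0.815). Against control FOSL1 rose by 1.44 with 5-NA (SE 0.0801, 95% interval 1.26 to 1.62, adjusted p = 4.25e-05), or 2.71-fold. With CBU-028 it rose by 0.42 (SE 0.0801, adjusted p = 0.0123), a call lost without control replicate 1 (adjusted p = 0.0926) or control replicate 2 (adjusted p = 0.102).

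FOSL2, or FRA2, was read by 5 probe sets, which gave unequal values. The probe set of highest mean over all 8 arrays, 218880_at, was at 6.80 and 6.67 in control, 7.30 and 7.06 with EerI, 7.29 and 7.31 with CBU-028, and 7.76 and 7.53 with 5-NA. In control alone the mean of 218881_s_at was higher, at 6.92 against 6.73, so the choice of 218880_at rested on the treated arrays. All treated arrays of 218880_at lay above both of its control arrays and the 5-NA arrays lay highest. By this probe set FOSL2 rose by 0.91 with 5-NA (SE 0.111, adjusted p = 0.00116) and by 0.57 with CBU-028 (adjusted p = 0.014), the latter call being lost without control replicate 1 (adjusted p = 0.0633) or control replicate 2 (adjusted p = 0.116). With EerI the difference was 0.45 (95% interval 0.20 to 0.70, adjusted p = 0.16). 2 other FOSL2 probe sets were called with 5-NA, 225262_at at 0.68 (adjusted p = 0.0177) and 205409_at at 0.38 (adjusted p = 0.0253), and each lost its call when either control array was left out, as well as without 5-NA replicate 1 for 225262_at (adjusted p = 0.0506) and 5-NA replicate 2 for 205409_at (adjusted p = 0.146). Without control replicate 1 and control replicate 2 the adjusted p was 0.0805 and 0.108 for 225262_at, and 0.205 and 0.0602 for 205409_at. The remaining probe sets, 218881_s_at and 228188_at, differed from control with 5-NA by 0.12 (95% interval -0.15 to 0.39) and 0.23 (95% interval -0.09 to 0.55), and neither was called with any compound.

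JUN, the subunit that binds DNA as its own dimer or with FOS, was read by 4 probe sets. The probe set 201466_s_at was at 11.37 and 11.42 in control, 12.14 and 12.13 with EerI, 11.77 and 11.83 with CBU-028, and 10.78 and 10.98 with 5-NA. Its groups did not overlap, and 5-NA was the one group below control. The probe set 201465_s_at was at 10.72 and 10.86 in control, 11.61 and 11.53 with EerI, 11.42 and 11.47 with CBU-028, and 10.85 and 10.98 with 5-NA. Here the EerI and CBU-028 arrays again lay above control, and the 5-NA and control arrays overlapped. The probe set 201464_x_at was at 13.22 and 13.24 in control, 13.70 and 13.65 with EerI, 13.49 and 13.63 with CBU-028, and 13.15 and 13.26 with 5-NA. The probe set 213281_at was at 9.22 and 9.40 in control, 9.68 and 9.75 with EerI, 9.73 and 9.39 with CBU-028, and 9.23 and 9.43 with 5-NA. In both, the EerI arrays lay above the control arrays and the 5-NA arrays overlapped with them.

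Against control, JUN rose with EerI by 0.78 in 201465_s_at (SE 0.0890, adjusted p = 0.00697), or 1.72-fold, and by 0.74 in 201466_s_at (SE 0.0890, adjusted p = 0.00908), or 1.68-fold. Both calls were lost in fits with 1 array left out, although the size of the rise changed little. The call of JUN 201465_s_at was lost without EerI replicate 1 (adjusted p = 0.136), EerI replicate 2 (adjusted p = 0.0822) or control replicate 1 (adjusted p = 0.113), and that of JUN 201466_s_at without any of the 4 arrays (adjusted p = 0.108 to 0.149), while the log2 fold changes stayed between 0.71 and 0.85. The other 2 probe sets, with 0.45 in 201464_x_at (adjusted p = 0.069) and 0.40 in 213281_at (adjusted p = 0.296), were not called. With CBU-028 JUN rose by 0.66 in 201465_s_at (adjusted p = 0.00272), which was called without any 1 array, by 0.41 in 201466_s_at (adjusted p = 0.0217) and by 0.33 in 201464_x_at (adjusted p = 0.0392). The latter calls were lost without control replicate 1 (adjusted p = 0.163 and 0.22) or control replicate 2 (adjusted p = 0.111 and 0.177), and that of 201464_x_at also without CBU-028 replicate 2 (adjusted p = 0.0879). With 5-NA the JUN probe sets disagreed. 201466_s_at fell by 0.52 (SE 0.0890, adjusted p = 0.00522), a call lost without control replicate 2 (adjusted p = 0.0539), while 201464_x_at, 201465_s_at and 213281_at were at -0.02 (95% interval -0.22 to 0.17), 0.12 (95% interval -0.08 to 0.33) and 0.02 (95% interval -0.27 to 0.31).

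JUNB, which often opposes JUN in cell growth, was at 8.18 and 8.26 in control, 7.92 and 7.92 with EerI, 7.46 and 7.64 with CBU-028, and 8.56 and 8.62 with 5-NA. The 4 groups did not overlap, with 5-NA above control and CBU-028 and EerI below it. JUNB fell by 0.66 with CBU-028 (SE 0.0882, adjusted p = 0.00246), a call kept without each array in turn, with adjusted p values up to 0.0346. JUNB rose by 0.37 with 5-NA (adjusted p = 0.0225), and this call was lost without any of the 4 arrays compared (adjusted p = 0.0701 to 0.168). With EerI the difference was -0.30 (95% interval -0.50 to -0.10, adjusted p = 0.252).

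JUND, the member of the JUN family that is usually expressed in resting cells, had no probe set called against control. Its probe set of highest mean, 203752_s_at, was at 12.05 and 12.10 in control, 12.29 and 12.10 with EerI, 12.45 and 12.25 with CBU-028, and 11.85 and 11.88 with 5-NA. The 5-NA arrays lay below all others, the CBU-028 arrays lay above both control arrays, and the EerI arrays overlapped with each of these 2 groups. The differences of JUND 203752_s_at from control were 0.12 with EerI (95% interval -0.11 to 0.34), 0.27 with CBU-028 (95% interval 0.05 to 0.49) and -0.22 with 5-NA (95% interval -0.44 to 0.01). The other 3 probe sets of JUND ranged from -0.09 to 0.06 with EerI, from -0.11 to 0.28 with CBU-028 and from -0.04 to 0.15 with 5-NA. With CBU-028, 203751_x_at was at 0.28 (95% interval 0.05 to 0.51, adjusted p = 0.126) and 214326_x_at at 0.27 (95% interval 0.06 to 0.48, adjusted p = 0.114). The third, 229117_s_at, was at -0.11 (95% interval -0.39 to 0.18).

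**Figure D2:**
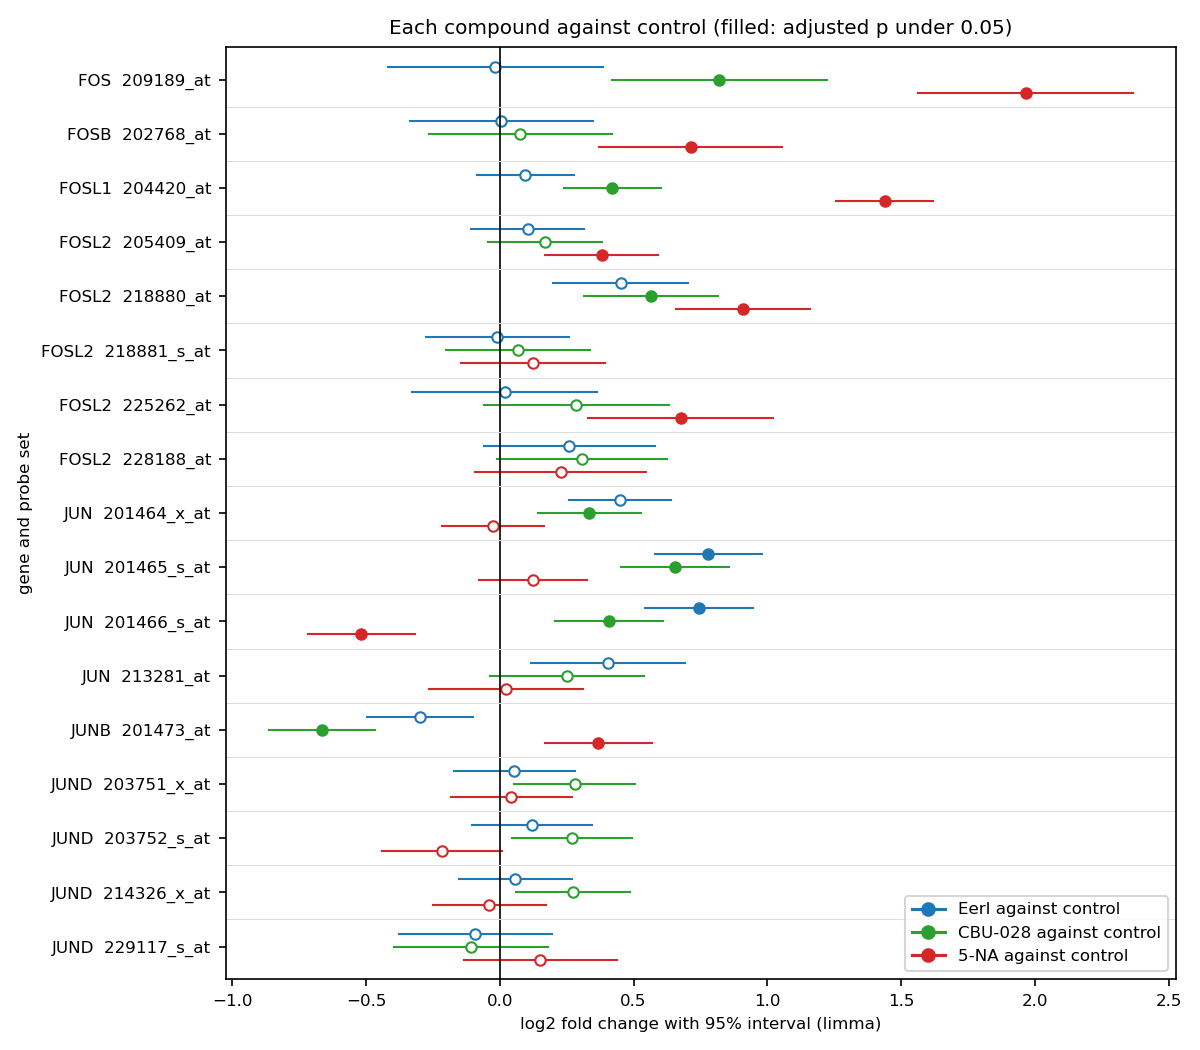
Log2 fold change against control of each FOS and JUN family probe set for EerI, CBU-028 and 5-NA, with the 95% interval of limma, and filled points for an adjusted p under 0.05. The FOS point of 5-NA at 1.97 and the FOSL1 point at 1.44 lie farthest from 0, and JUN 201466_s_at lies at 0.74 with EerI and at -0.52 with 5-NA.

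The 3 compounds were also tested against each other at the same dose of 10 µM and time of 10 h. With those against control this makes 6 comparisons. In lymphoma cells, the study found the nitrofuran-containing part alone toxic at a lower concentration than EerI. The same dose may therefore not have been equally strong for each compound. The part of potency in the differences between compounds was not tested. Between 5-NA and EerI, which differ by the aromatic domain that 5-NA lacks, 6 member probe sets were higher and 3 lower with 5-NA, where 6.93% of all probe sets were called higher and 7.08% lower. FOS was 1.98 higher on the log2 scale with 5-NA (95% interval 1.58 to 2.39, adjusted p = 0.000414) and FOSL1 1.34 higher (95% interval 1.16 to 1.53, adjusted p = 0.000105), and FOS ranked as the 6th largest increase among all probe sets. JUN was lower with 5-NA in 3 of its 4 probe sets, by -1.26 in 201466_s_at (95% interval -1.46 to -1.06, adjusted p = 0.0002), by -0.66 in 201465_s_at (adjusted p = 0.00208) and by -0.47 in 201464_x_at (adjusted p = 0.00679). The last of these calls was lost without EerI replicate 1 (adjusted p = 0.0668), and 213281_at, at -0.38 (95% interval -0.67 to -0.09, adjusted p = 0.0827), was not called. JUNB was 0.67 higher with 5-NA (adjusted p = 0.00188).

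The other calls of this pair were of FOSB, at 0.71 (adjusted p = 0.015), and of FOSL2, at 0.66 in 225262_at (adjusted p = 0.0212) and 0.46 in 218880_at (adjusted p = 0.0253). Each of these was lost without EerI replicate 2 (adjusted p = 0.115 for FOSB, 0.131 for FOSL2 225262_at and 0.183 for FOSL2 218880_at) and without 5-NA replicate 1 (adjusted p = 0.0855, 0.0604 and 0.144 in the same order). Those of FOSB and FOSL2 225262_at were also lost without EerI replicate 1 (adjusted p = 0.0512 and 0.0876). JUND was not called, with -0.33 in 203752_s_at (95% interval -0.56 to -0.11, adjusted p = 0.0555). This value gained a call in 6 of 17 alternative settings and stayed uncalled in 11. The 6 included renewed quantile normalization (adjusted p = 0.045), the compared groups alone (adjusted p = 0.0465) and a trend in the prior variance (adjusted p = 0.0105).

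CBU-028 and EerI differed by 1 called member probe set, which was higher with CBU-028, where 1.28% of all were called higher and 1.67% lower. FOS was 0.84 higher with CBU-028 (95% interval 0.44 to 1.24, adjusted p = 0.0426), and this call was lost without EerI replicate 1 (adjusted p = 0.218), EerI replicate 2 (adjusted p = 0.23) or CBU-028 replicate 2 (adjusted p = 0.0813). The intervals of FOSL1, at 0.33 (95% interval 0.15 to 0.51, adjusted p = 0.0686), JUNB, at -0.37 (95% interval -0.57 to -0.17, adjusted p = 0.0648), and JUN 201466_s_at, at -0.34 (95% interval -0.54 to -0.14, adjusted p = 0.0847), left out 0 without a call after adjustment. So did those of JUND 203751_x_at, at 0.23 (95% interval 0.0006 to 0.45, adjusted p = 0.283), and JUND 214326_x_at, at 0.21 (95% interval 0.002 to 0.43, adjusted p = 0.279). For JUN 201465_s_at the difference was -0.12 (95% interval -0.33 to 0.08) and for FOSB it was 0.07 (95% interval -0.27 to 0.41). In this comparison 0 member probe sets were called lower by limma. At an unadjusted p under 0.05, JUN 201466_s_at and JUNB, 2 probe sets, were lower, where 9.23% of all probe sets were. Another 4 member probe sets were higher at this threshold, for which the share of all probe sets is not given. An analysis of variance like that of the study called 0 in either direction after an added adjustment, and 2 higher and 2 lower without it.

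5-NA and CBU-028 differed in 8 member probe sets, 4 higher and 4 lower with 5-NA, where 5.51% of all were called higher and 5.09% lower. FOS was 1.15 higher with 5-NA (95% interval 0.74 to 1.55, adjusted p = 0.00502), FOSL1 1.02 higher (95% interval 0.84 to 1.20, adjusted p = 0.00054) and JUNB 1.03 higher (95% interval 0.83 to 1.23, adjusted p = 0.000738). JUN was lower with 5-NA by -0.93 in 201466_s_at (95% interval -1.13 to -0.72, adjusted p = 0.000931), by -0.53 in 201465_s_at (adjusted p = 0.00691) and by -0.36 in 201464_x_at (adjusted p = 0.0281). JUND was lower by -0.49 in 203752_s_at (adjusted p = 0.0159), and FOSB was 0.64 higher (adjusted p = 0.0294).

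Of these calls between 5-NA and CBU-028, those of FOSB, JUND 203752_s_at and JUN 201464_x_at and 201465_s_at were lost without 5-NA replicate 1 (adjusted p = 0.151, 0.0845, 0.132 and 0.0512). Those of JUND 203752_s_at and JUN 201464_x_at were also lost without 5-NA replicate 2 (adjusted p = 0.0754 and 0.0632), those of FOSB and JUND 203752_s_at without CBU-028 replicate 1 (adjusted p = 0.0995 and 0.0514), and that of JUN 201464_x_at without CBU-028 replicate 2 (adjusted p = 0.0712). FOSL2 was not called, with 0.34 in 218880_at (95% interval 0.09 to 0.59) and 0.39 in 225262_at (95% interval 0.05 to 0.74).

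**Figure D3:**
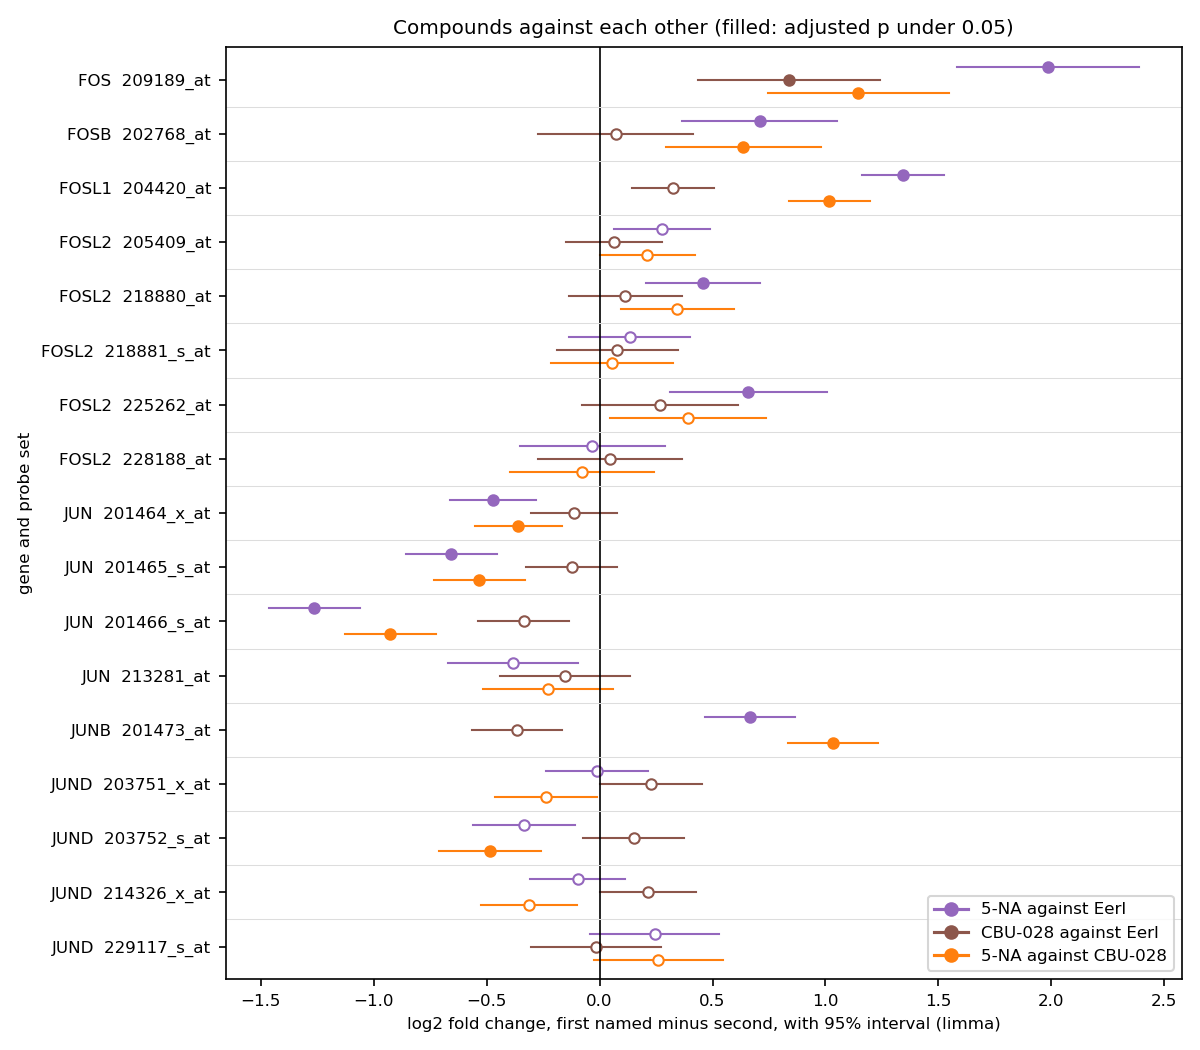
Log2 fold change between compounds of each FOS and JUN family probe set, first named compound minus the second, with the 95% interval of limma, and filled points for an adjusted p under 0.05. For 5-NA minus EerI, FOS lies at 1.98 and JUN 201466_s_at at -1.26, and FOS alone is filled between CBU-028 and EerI.

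The other genes of the pathway were taken from 6 lists, with each gene read by its probe set of highest mean. Of all genes, 0.506% were called higher and 0.263% lower with EerI, 5.49% and 7.10% with CBU-028, and 7.87% and 10.9% with 5-NA. At an unadjusted p under 0.05 the shares of all genes higher and lower were 5.13% and 6.71% with EerI, 12.1% and 14.8% with CBU-028, and 13.1% and 18.4% with 5-NA. Counting a gene as called by any of its probe sets, they were 0.632% and 0.349%, 7.68% and 9.88%, and 11.5% and 14.5% in the same order. Among 11 measured basic leucine zipper genes whose proteins can pair with FOS or JUN subunits, 3 rose with EerI, 4 rose and 1 fell with CBU-028, and 4 rose and 1 fell with 5-NA. The medians of this list were 0.02, 0.10 and 0.16 in the same order. ATF3, a stress-induced partner of JUN, rose by 1.87 with EerI (adjusted p = 9.94e-05), 2.84 with CBU-028 and 2.03 with 5-NA. JDP2, a repressor that binds JUN, rose by 1.92, 2.27 and 1.36. MAFG, a small MAF protein, rose by 1.01 with CBU-028 and 1.68 with 5-NA, and was at 0.54 with EerI (adjusted p = 0.0644). CREB5, a relative of ATF2, rose by 0.75 with EerI (adjusted p = 0.0368) and 0.82 with CBU-028, and MAFF, another small MAF protein, rose by 0.45 with 5-NA. The 1 partner that fell, with both CBU-028 (by 0.77) and 5-NA (by 0.38), was MAF, a transcription factor of the same superfamily.

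Of 19 measured MAP kinases and kinases of their cascades, which carry stress and growth factor signals to AP-1, 0 were called with EerI, 2 fell with CBU-028, and 2 rose and 2 fell with 5-NA, with medians of -0.04, -0.09 and -0.11. At an unadjusted p under 0.05, 1 of them was higher and 2 lower with EerI, 1 and 6 with CBU-028, and 6 and 4 with 5-NA. MAP2K6, an activator of p38, fell by 0.85 with CBU-028 and by 1.12 with 5-NA, and MAPK8, a kinase of JUN, rose by 0.30 with 5-NA. Of 13 factors that bind the FOS and JUN promoters, 1 fell with EerI, 2 rose and 2 fell with CBU-028, and 2 rose and 3 fell with 5-NA. At an unadjusted p under 0.05, 1 of these was higher and 2 lower with EerI, 4 and 4 with CBU-028, and 5 and 3 with 5-NA. Their medians were -0.09, -0.09 and 0.16. ELK3, a partner of serum response factor at such promoters, fell by 0.47 with EerI, 1.01 with CBU-028 and 0.66 with 5-NA, and SRF itself fell by 0.36 with CBU-028.

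Of 8 genes for proteins that bind AU-rich elements, through which mRNAs such as that of FOS are degraded, 0 were called with EerI, 1 fell with CBU-028, and 2 rose and 1 fell with 5-NA. At an unadjusted p under 0.05, 1 of them was lower with EerI, 2 were lower with CBU-028, and 2 were higher and 2 lower with 5-NA. The medians of this list were -0.08, -0.11 and -0.01. ZFP36, which promotes the decay of such mRNAs, rose by 0.73 with 5-NA (adjusted p = 0.000694), and ZFP36L1, of the same family, fell by 0.67 with CBU-028. Of 7 measured genes for the turnover of FOS and JUN proteins, 0 were called with EerI, 2 rose with CBU-028, and 2 rose and 1 fell with 5-NA. At an unadjusted p under 0.05, 1 was higher with EerI, 5 were higher with CBU-028, and 2 were higher and 2 lower with 5-NA. The medians of these genes were 0.07, 0.27 and 0.11, against -0.00, -0.01 and -0.03 over all genes. ITCH, a ubiquitin ligase for JUN, rose by 0.37 with CBU-028 and 0.41 with 5-NA. DET1, an adaptor of another ligase for JUN, rose by 0.40 with CBU-028 and fell by 0.70 with 5-NA.

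Of 22 measured genes described as targets of AP-1, 0 were called with EerI or CBU-028, and 2 rose with 5-NA. At an unadjusted p under 0.05, 1 was higher with EerI, 2 were higher and 2 lower with CBU-028, and 7 were higher with 5-NA. HBEGF, a growth factor of the EGF family, rose by 1.49 with 5-NA (adjusted p = 0.000237), and was at 0.37 with CBU-028 (adjusted p = 0.106) and 0.01 with EerI. LIF, a cytokine, rose by 0.45 with 5-NA, and CCND1, which encodes cyclin D1, was at 0.27 (adjusted p = 0.101). The medians of the list were -0.00, 0.02 and 0.09, and those of all genes -0.00, -0.01 and -0.03.

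**Figure D4:**
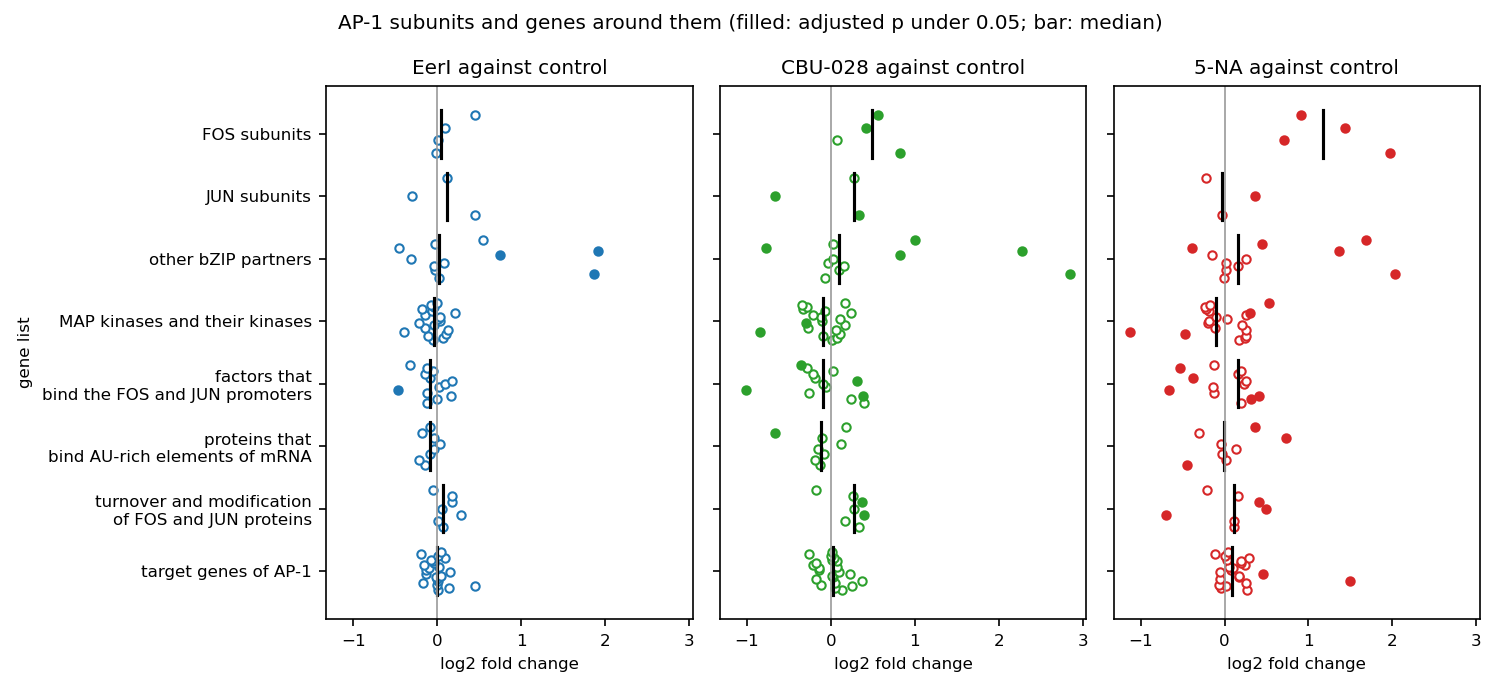
Log2 fold change against control of each gene of the FOS and JUN subunits and of the 6 lists of pathway genes, with 1 point per gene by its probe set of highest mean and filled points for an adjusted p under 0.05. ATF3, at 2.84 with CBU-028, lies highest among the partners, and HBEGF, at 1.49 with 5-NA, highest among the target genes.

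The genes whose values over the 8 arrays were most like those of FOS, by the root mean square difference between log2 values set against each gene's own control mean, were ALDH8A1 (0.259), EID3 (0.294), GADD45B (0.294), LSMEM1 (0.325) and RNA45SN5 (0.345), among 19775 genes. Against control with 5-NA these were higher by 1.61, 1.65, 2.38, 1.53 and 1.86 in the same order. With EerI they were at -0.04, 0.40, 0.33, 0.16 and 0.07, where FOS was at -0.02. With CBU-028 they were at 0.56, 0.69, 0.90, 0.61 and 0.26, where FOS was at 0.82. Most like FOSL1 were TEX14 (0.0844), H2BC5 (0.0915), H2BC12L (0.0969), HBEGF (0.104) and H2BC6 (0.108), which with 5-NA were higher by 1.33, 1.28, 1.47, 1.49 and 1.29. The 8 arrays share 4 treatments, and this likeness is a description.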

How the data were processed

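Cells were treated in duplicate, and RNA was hybridised to 8 Affymetrix arrays with the probe sets of HG-U133 Plus 2.0, although the methods name another array of this family. The deposited log2 values had been made by the authors with RMA, which corrects for background, gives all arrays 1 distribution and summarises each probe set. RMA and Partek are named without versions. Probe sets were named from the platform annotation, in which 41097 had 1 symbol, 1801 had several and 11777 had none.

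Group means were fitted to all 54675 probe sets and 8 arrays with limma 3.58.1 in R 4.3.3, with 4 residual and 5.08 prior degrees of freedom, and p-values were adjusted after Benjamini and Hochberg within each of the 6 comparisons. The median standard error of a difference was 0.0990, and the number of arrays limits the precision. An exact permutation test of 2 against 2 arrays cannot give a p below 0.333. The fit was tested on simulated data. All member probe sets are described, and from each pathway list at most the 4 called genes of largest change per comparison and 1 or 2 others were named, with MAF added after its values were seen. Members and lists were chosen with earlier results of these data known. Promoters were searched in Python 3.11.15, and figures were drawn with matplotlib 3.10.9.

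Alternatives were an analysis of variance like that of the study, with and without adjustment, a 2-fold threshold, removal of dim probe sets, renewed quantile normalization, median centring, removal of control probe sets, a trend in the prior variance, the compared groups alone, a replicate block and each array left out. A further alternative left out the probe sets whose names end in _x_at, among them the JUN probe set of highest mean. The study's own rule joined a p under 0.05 with a 2-fold change and named no adjustment, and this joint rule was not run.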

Additional observations from a re-analysis of the deposited data

How the results depend on the processing

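Over the 17 probe sets and 6 comparisons, 1510 of 1686 recomputed log2 fold changes kept their direction and their side of the threshold, 106 lost a call, 34 gained one and 36 changed sign, and no called change turned. FOS and FOSL1 stayed called with 5-NA against control and against EerI under every alternative run, as did FOSL1 and JUNB with 5-NA against CBU-028 and JUN 201466_s_at with 5-NA against EerI. With the analysis of variance and an added adjustment, the count of members called against control was 0 with EerI, 3 with CBU-028 and 4 with 5-NA, and 0 between CBU-028 and EerI and 4 between 5-NA and CBU-028, and without adjustment it was 5 for EerI against control and 4 between CBU-028 and EerI. With a 2-fold threshold added it was 0, 0 and 2 against control, 3 between 5-NA and EerI, 0 between CBU-028 and EerI and 3 between 5-NA and CBU-028. Fitting the compared groups alone gave 4 for CBU-028 against control, 0 between CBU-028 and EerI and 5 between 5-NA and CBU-028. A trend in the prior variance gave 3 between CBU-028 and EerI (1 higher and 2 lower), and keeping probe sets with a mean of at least 7, which tests fewer members, gave 4 there (2 higher and 2 lower) and 5 for 5-NA against control. Under both settings the 2 that were lower with CBU-028 than with EerI were JUN 201466_s_at and JUNB. With each array left out, the counts against control ranged from 0 to 1 with EerI, 2 to 8 with CBU-028 and 3 to 6 with 5-NA, and from 6 to 9 between 5-NA and EerI, 0 to 1 between CBU-028 and EerI and 4 to 8 between 5-NA and CBU-028. The share of all probe sets called under these alternatives is not given, so their counts are not read as a result about the members. Counting a list gene by any probe set gave 1 AP-1 target with EerI (lower), 2 with CBU-028 (1 higher and 1 lower) and 6 with 5-NA (5 higher and 1 lower), 7 promoter-binding factors with CBU-028 (4 higher and 3 lower) and 8 with 5-NA (5 and 3), and with 5-NA 5 AU-rich element binders (3 and 2) and 5 turnover genes (2 and 3), where with 5-NA 11.5% of all genes were called higher and 14.5% lower this way. For FOSB with EerI against control the value turned to -0.013 under renewed quantile normalization and -0.012 under median centring, and that of FOSL2 225262_at to -0.0021 under the former, neither being called. The other 33 changes of sign came with 1 array left out, in values not called. The ranges of the log2 fold changes concerned, with each array left out, follow. For EerI against control they were -0.10 to 0.11 for FOSB 202768_at, -0.040 to 0.076 for FOSL2 225262_at, -0.027 to 0.14 for JUND 214326_x_at, -0.16 to 0.12 for FOS 209189_at, -0.18 to 0.16 for FOSL2 218881_s_at and -0.19 to 0.0035 for JUND 229117_s_at. For CBU-028 against control they were -0.014 to 0.15 for FOSL2 218881_s_at, -0.051 to 0.21 for FOSB 202768_at and -0.30 to 0.085 for JUND 229117_s_at. For 5-NA against control they were -0.078 to 0.12 for JUN 213281_at, -0.025 to 0.11 for JUND 203751_x_at, -0.080 to 0.031 for JUN 201464_x_at and -0.083 to 0.0041 for JUND 214326_x_at. For 5-NA against EerI they were -0.079 to 0.057 for JUND 203751_x_at, -0.038 to 0.30 for FOSL2 218881_s_at and -0.16 to 0.10 for FOSL2 228188_at. For CBU-028 against EerI they were -0.073 to 0.17 for FOSL2 228188_at, -0.21 to 0.18 for JUND 229117_s_at, -0.056 to 0.20 for FOSB 202768_at, -0.33 to 0.018 for JUN 213281_at, -0.0042 to 0.23 for FOSL2 218880_at and -0.093 to 0.25 for FOSL2 218881_s_at. For 5-NA against CBU-028 they were -0.21 to 0.052 for FOSL2 228188_at. The cause of these differences between settings was not tested.

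For arrays of the same replicate number, the deviations from the group means correlated by -0.146 to 0.146 across probe sets. With 2 arrays per group, such values cannot show whether arrays of the same number shared a culture or a processing day. With the replicate block the member counts stayed at 2, 7 and 8 for EerI, CBU-028 and 5-NA against control and at 9, 1 and 8 for 5-NA against EerI, CBU-028 against EerI and 5-NA against CBU-028, while calls over all probe sets went from 288 to 219 for EerI against control and from 8318 to 7917 for 5-NA against control. With the numbers of the EerI arrays exchanged, a choice made after seeing the data, the member counts were 2, 7, 8, 9, 1 and 8 in the same order. The deposited values hold no detection calls, so it was not known which dim probe sets were above background, and the residual SD of duplicates ran from 0.0921 in control to 0.163 with CBU-028, while 1 pooled spread was used.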
